A study of Mus musculus with 3 samples.

Results

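The 10 genes described here encode the helicase subunits Mcm2 to Mcm7, the loading factors Cdt1 and Cdc6, the licensing inhibitor geminin (Gmnn) and the sliding clamp Pcna. They were chosen by name among the 55536 genes of the deposited tables, and each symbol matched a single entry. The cells were naive CD4 αβ T cells, labelled as thymus-derived, of 1 male B6.SJL-Ptprca Pepcb/BoyJ mouse aged 5 months, and their polyA RNA was sequenced. The strain has the C57BL/6 background with the CD45.1 form of Ptprc, and the labels give no treatment. There was 1 group, a single biological replicate sequenced as 3 technical libraries, so SD stands for technical spread throughout (n = 3), and conditions or animals cannot be compared. The labels do not say how the cells were sorted.

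Licensing is the step that makes replication origins competent before S phase. The origin recognition complex marks the origin, Cdc6 and Cdt1 bring the ring-shaped helicase Mcm2 to Mcm7 onto DNA, and geminin binds Cdt1 and stops further loading. The helicase ring holds its 6 subunits in equal number, and Pcna later encircles DNA to tether polymerases. Naive T cells rest outside the cell cycle for long periods and start to divide when they meet antigen. In cultured cells that have left the cycle, Cdc6 protein is known to be scarce.

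Totals of expected counts, the estimated reads assigned to genes, were 14837442, 18207118 and 17505621 in libraries 1, 2 and 3. Levels are in TPM, a level scaled for transcript length and depth, and a gene counted as detected where each library gave at least 1 TPM. All 5 T cell and CD4 markers and all 5 naive T cell markers were detected, with a median of 760.5 ± 28.8 TPM and 1461 ± 109 TPM. Of the other markers, 1 of 5 B cell, 1 of 5 myeloid, 1 of 5 erythroid, 1 of 4 natural killer, 1 of 5 stromal and 1 of 2 CD8 genes were detected. Summed levels in libraries 1, 2 and 3 were 2.13, 3.18 and 2.42 TPM for B cell genes and 2.77, 3.44 and 2.39 TPM for myeloid genes. Natural killer genes summed to 11.47, 15.64 and 10.63 TPM, mostly Klrd1, and CD8 genes to 16.95, 17.08 and 17.39 TPM, nearly all Cd8b1. The 6 thymocyte genes, of which 3 were detected, summed to 95.5, 92.0 and 98.4 TPM. Of that thymocyte sum Cd1d1 alone gave 84.6 TPM on average. Dntt averaged 7.83 TPM and Cd24a 2.72 TPM, while Rag1, Rag2 and Ptcra averaged 0.0167, 0.0167 and 0.0567 TPM. Of 20 proliferation and mitosis genes 7 were detected, with a list median of 0.590 ± 0.111 TPM, and the cycle marker Mki67 stood at 0.06, 0.17 and 0.18 TPM.

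Messenger RNA of every helicase subunit was present, at 25.98 TPM or more in each library, and so was that of Cdt1, whereas Cdc6 was near the limit of detection. Of the 10 genes 9 were detected, beside 44.6% of all protein-coding genes. Their median level was 63.2 TPM, against 31.4 TPM over the 9823 detected protein-coding genes.

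Positions are those of GENCODE M21 on GRCm38 (mm10), and all 10 genes are annotated as protein-coding. Mcm7 (chr5:138164583-138172422, minus strand) had 92.76, 86.85 and 93.44 TPM in libraries 1, 2 and 3. Mcm4 (chr16:15623897-15637400, minus strand) had 91.83, 80.80 and 97.70 TPM. Mcm6 (chr1:128331590-128359664, minus strand) had 94.65, 72.52 and 89.07 TPM. These 3 subunits, which form the catalytic core in purified complexes, had overlapping ranges and averaged 91.0 ± 3.62, 90.1 ± 8.58 and 85.4 ± 11.5 TPM. Counting protein-coding transcripts only, Mcm7 had 80.21, 71.94 and 78.60 TPM and averaged 76.9 TPM. By that count Mcm4 averaged 90.1 and Mcm6 84.3 TPM, so the place of Mcm7 as the highest subunit did not hold. Mcm7 was also 4th of the 10 genes, below Mcm4 and Mcm6, with older counts and without length correction. Mcm2 (chr6:88883474-88898780, minus strand) had 56.86, 50.51 and 56.06 TPM, with a mean of 54.5 ± 3.46 TPM. Mcm3 (chr1:20802968-20820312, minus strand) had 46.94, 34.87 and 54.66 TPM, with a mean of 45.5 ± 9.97 TPM and a range that overlapped that of Mcm2. Mcm5 (chr8:75109569-75128439, plus strand) had 28.64, 27.32 and 25.98 TPM and was the lowest subunit in every library, at 27.3 ± 1.33 TPM. Mcm2 and Mcm5 flank the gap in the ring through which DNA enters.

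Messages for these equally used subunits thus stood at unequal levels. The highest subunit exceeded the lowest 3.30-fold, 3.18-fold and 3.76-fold in libraries 1, 2 and 3. From counts pooled over libraries and scaled for effective length, the ratio of Mcm4 to Mcm5 was 3.29 (exact 95% interval 3.14 to 3.45, counting error only). With the older counts described below, the log2 range over the 6 subunits was 1.43, against 1.74 with TPM.

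Among the loading factors, Cdt1 (chr8:122568015-122573554, plus strand), which carries the helicase to the origin, had 75.36, 68.12 and 72.13 TPM, with a mean of 71.9 ± 3.63 TPM. Cdc6 (chr11:98907801-98923940, plus strand), the ATPase that joins the origin recognition complex, had 0.18, 0.42 and 0.27 TPM, with a mean of 0.290 ± 0.121 TPM. The Cdc6 values rest on 5, 10 and 7 expected counts, 22 in all, with an exact Poisson 95% interval of 13.8 to 33.3. The authors' deposited bounds on Cdc6 ran between 0.106 and 0.840 TPM in library 1, 0.196 and 1.02 TPM in library 2 and 0.141 and 0.804 TPM in library 3. The ratio of Cdt1 to Cdc6 from pooled counts was 254 (exact 95% interval 168 to 406). The deposited posterior mean was 0.470 TPM for Cdc6, and with it the ratio was 136, outside that interval of counting error. In such bulk RNA, a few cells that hold much Cdc6 message and many cells that hold little cannot be told apart.

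Gmnn (chr13:24751845-24761923, minus strand) had 16.72, 16.87 and 17.97 TPM, with a mean of 17.2 ± 0.683 TPM and no overlap with Mcm5 above it or Cdc6 below it. The message of Cdt1 exceeded that of its inhibitor 4.17-fold from pooled counts (exact 95% interval 3.79 to 4.60). Pcna (chr2:132249162-132253314, minus strand) was the highest of the 10 genes, with 144.0, 162.49 and 158.86 TPM and a mean of 155 ± 9.80 TPM. It stood above 88.7% of detected protein-coding genes, Mcm7 above 79.0%, Cdt1 above 73.5%, Mcm5 above 46.0% and Gmnn above 33.8%.

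**Figure D1:**
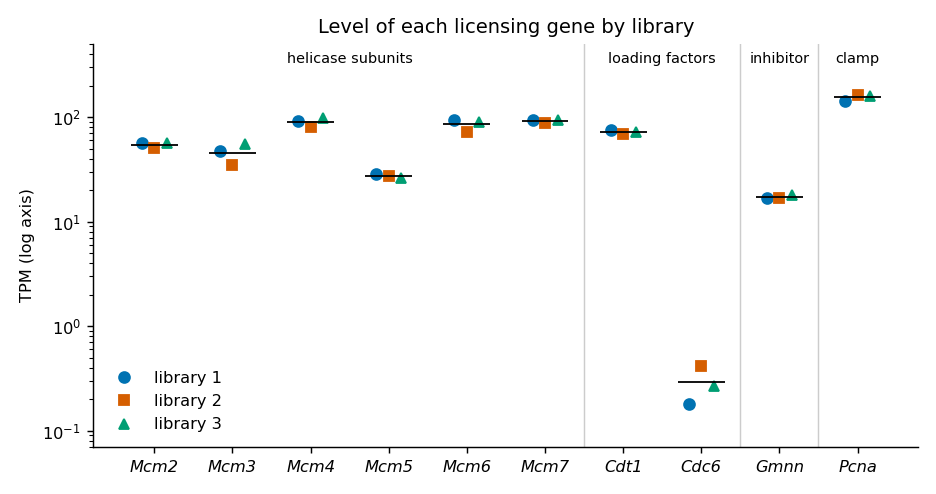
TPM of the 10 genes on a log axis, with 1 point for each of libraries 1, 2 and 3 and a line at the mean. The helicase subunits and Cdt1 lie between 25.98 and 97.70 TPM in every library, Cdc6 lies at 0.42 TPM or lower, Gmnn near 17 TPM and Pcna at 144.0 TPM or higher.

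In order of mean level the genes ran Pcna, Mcm7, Mcm4, Mcm6, Cdt1, Mcm2, Mcm3, Mcm5, Gmnn and Cdc6. Of the 9 pairs of neighbours, 5 did not overlap between libraries, namely Pcna above Mcm7, Cdt1 above Mcm2, Mcm3 above Mcm5, Mcm5 above Gmnn and Gmnn above Cdc6. Mcm7 and Mcm4, Mcm4 and Mcm6, Mcm6 and Cdt1, and Mcm2 and Mcm3 did not differ beyond their spread, although Mcm6 exceeded Cdt1, and Mcm2 exceeded Mcm3, within each of the 3 libraries.

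Set against the 2 loading factors together, the helicase subunits were higher by 3.78, 3.18 and 3.62 on the log2 scale in libraries 1, 2 and 3, a mean of 3.52 ± 0.31. This difference of mean log2(TPM + 0.1) hid unlike relations to the 2 factors, far above Cdc6 and on both sides of Cdt1. Against Cdc6 alone the subunits were higher by 7.31 ± 0.57, and all 6 subunits exceeded Cdc6 in every library. Against Cdt1 alone the difference was -0.26 ± 0.08, with -0.26, -0.34 and -0.19 in libraries 1, 2 and 3. Mcm4, Mcm6 and Mcm7 exceeded Cdt1 in every library, by mean log2 ratios of 0.32 ± 0.10, 0.24 ± 0.13 and 0.34 ± 0.04. Mcm2, Mcm3 and Mcm5 were below Cdt1 in every library, with mean log2 ratios of -0.40 ± 0.03, -0.68 ± 0.28 and -1.39 ± 0.08. With older counts 2 of 6 subunits, Mcm4 and Mcm6, exceeded Cdt1, and without length correction 4 of 6 did. An exact sign-flip test over 3 libraries cannot go below p = 0.25, and the libraries are technical, so no test of these differences is given.

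**Figure D2:**
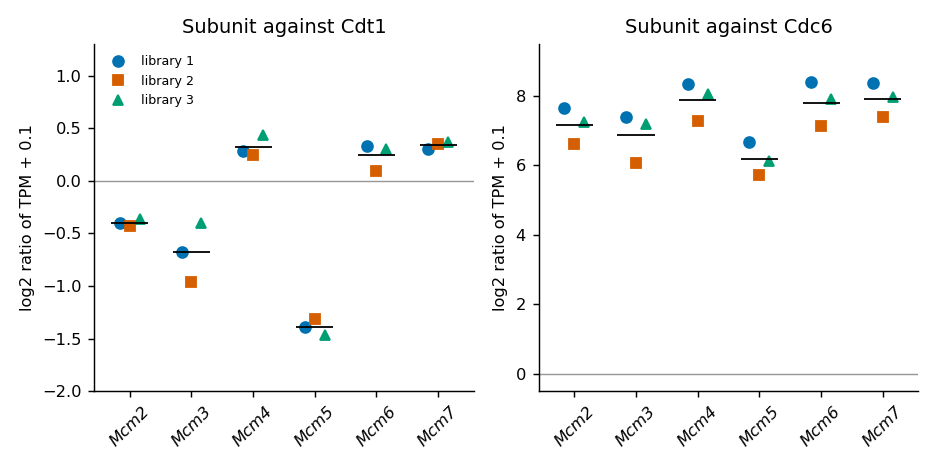
Log2 ratio of each helicase subunit to Cdt1 (left) and to Cdc6 (right), from TPM + 0.1, with 1 point per library and a line at the mean. Ratios to Cdt1 fall on both sides of 0, with Mcm5 lowest at -1.39, and all ratios to Cdc6 lie above 5.

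The spread between libraries was tested on counts, by chi-square homogeneity after edgeR's TMM scaling with Benjamini-Hochberg adjustment over the 13090 genes that averaged 10 counts or more. Cdc6 fell under that minimum. Of the other 9 genes 4 differed between libraries at an adjusted p under 0.05, beside 40.0% of all genes tested, a similar share. Scaled counts of Mcm3 were 1099, 991 and 1276 in libraries 1, 2 and 3, a highest-to-lowest ratio of 1.29 (adjusted p = 2.87e-08). Mcm6 had a ratio of 1.17 (adjusted p = 3.49e-07), Pcna of 1.19 (adjusted p = 3.12e-06) and Mcm4 of 1.08 (adjusted p = 0.0193). Cdt1 had the smallest ratio, 1.02 (adjusted p = 0.928), and Mcm2, Mcm5, Mcm7 and Gmnn did not pass the threshold either. The median ratio was 1.08 over these 9 genes and 1.20 over all genes tested. Such a ratio also depends on the number of counts, which was not matched, so these medians are not a like comparison. Without library 1 the number that differed was 5 (36.8% of all genes), without library 2 it was 1 (14.7%) and without library 3 it was 2 (27.6%).

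Library 2 had the lowest TPM for 5 of the 6 helicase subunits and for 6 of the 10 genes, and the highest for Cdc6 and Pcna. Its ribosomal RNA entries held 1.08% of TPM, against 0.299% and 0.262% in libraries 1 and 3, and its ribosomal protein genes 9.77%, against 6.89% and 6.59%. After rescaling over protein-coding genes library 2 was still the lowest for 5 of 6 subunits. The part of these shares in the members' spread was not tested.

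Promoter windows of 8 of the genes were read from RefSeq on GRCm38.p6, each running 250 bases before to 50 bases after the annotated start, with a second window for Mcm7. Many S phase genes are known targets of E2F factors, so 4 forms of the E2F letters (TTTCCCGC, TTTCGCGC, TTTGCCGC and TTTGGCGC) were searched on both strands, with overlapping matches counted. They occurred in windows of 6 of the 8 genes, and of 5 with only the first window of Mcm7, whose matches are in its second window. Of all single promoter windows of the same length, 744 of 32851, or 2.26%, hold them. Mcm3, Mcm5, Mcm6, Mcm7, Cdt1 and Cdc6 had a match, and none of these letters was in the windows of Mcm2 and Pcna. Shown are the subunit with the most matches, the lowest subunit and both loading factors, which differ most in level, with E2F letters in capitals.
Mcm6, chr1:128359656-128359955, minus strand: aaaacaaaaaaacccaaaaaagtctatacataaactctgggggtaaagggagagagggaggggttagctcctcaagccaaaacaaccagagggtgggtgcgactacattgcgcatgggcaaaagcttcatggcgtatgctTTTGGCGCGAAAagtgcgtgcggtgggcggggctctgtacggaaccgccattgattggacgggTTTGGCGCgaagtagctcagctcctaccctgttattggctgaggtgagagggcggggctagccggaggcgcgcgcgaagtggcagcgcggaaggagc
Mcm5, chr8:75109259-75109558, plus strand: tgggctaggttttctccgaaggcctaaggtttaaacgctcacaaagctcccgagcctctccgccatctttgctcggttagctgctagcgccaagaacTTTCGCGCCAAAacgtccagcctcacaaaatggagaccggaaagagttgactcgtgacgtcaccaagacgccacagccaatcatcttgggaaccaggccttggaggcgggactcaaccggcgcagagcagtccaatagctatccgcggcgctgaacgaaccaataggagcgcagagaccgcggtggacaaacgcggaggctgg
Cdt1, chr8:122567765-122568064, plus strand: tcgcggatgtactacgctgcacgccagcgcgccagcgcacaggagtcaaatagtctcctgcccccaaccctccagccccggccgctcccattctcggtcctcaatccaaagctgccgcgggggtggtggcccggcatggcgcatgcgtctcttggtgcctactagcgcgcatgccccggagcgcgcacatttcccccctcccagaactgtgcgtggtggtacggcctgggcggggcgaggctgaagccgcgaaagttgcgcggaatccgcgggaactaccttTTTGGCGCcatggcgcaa
Cdc6, chr11:98907901-98908200, plus strand: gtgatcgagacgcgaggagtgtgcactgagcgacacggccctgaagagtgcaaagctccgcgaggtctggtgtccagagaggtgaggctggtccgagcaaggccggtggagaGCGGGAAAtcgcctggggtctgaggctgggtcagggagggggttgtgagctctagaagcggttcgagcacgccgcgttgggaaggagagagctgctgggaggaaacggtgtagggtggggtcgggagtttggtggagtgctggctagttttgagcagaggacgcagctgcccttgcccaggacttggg
In the Mcm6 window a pair of overlapping matches on opposite strands starts at -110 and -106 from the transcript start, and a further match starts at -47. The Mcm5 window has such an overlapping pair at -153 and -149. The Cdt1 match starts at 33, downstream of the start, and that of Cdc6 at -138. Letters of this kind were thus present at Cdt1 and at Cdc6, whose messages differed over 100-fold by both estimates, and a match says nothing of whether a factor binds. CCAAT was found in 37.4% of all promoters, the GC box letters GGGCGG in 35.7% and TTTGAA in 17.9%, on either strand, and the Mcm6 and Mcm5 windows above hold CCAAT on at least 1 strand.

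Among 10 genes of E2F factors and their partners 8 were detected. E2f4, the main repressor of resting cells, had 93.3 ± 2.72 TPM and its partner Tfdp1 36.9 ± 3.74 TPM. The activators E2f1, E2f2 and E2f3 had 2.71 ± 0.277, 2.54 ± 0.319 and 1.23 ± 0.135 TPM, named here after their values were seen. E2f7 and E2f8, repressors of late S phase, were lowest at 0.657 ± 0.263 and 0.0800 ± 0.0854 TPM.

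Most of the genes had a single main transcript, judged by isoform percent, which tells how the TPM of a gene are divided over its transcripts. Mcm2-201, Mcm4-201 and Mcm6-201 held 97.9 ± 0.584, 98.6 ± 2.48 and 92.9 ± 1.47 percent of their genes. Cdt1-201 held 87.4 ± 0.816 percent, and 3 retained-intron models of Cdt1 held the other 12.6 ± 0.816 percent. Pcna-201 held 80.4 ± 2.01 percent, with 10.6 ± 0.941 percent in retained-intron models. Mcm3-201 held 75.82, 88.09 and 75.26 percent in libraries 1, 2 and 3, and Mcm3-203, a single retained-intron exon of 716 bases, held 23.08, 10.74 and 14.07 percent. Because that model is short, retained-intron models took 5.49% of Mcm3 counts but 20.3 ± 7.25 percent of its TPM. Counting protein-coding transcripts only, Mcm3 had 35.59, 30.72 and 41.13 TPM.

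Some divisions moved with a single library. Mcm5-203 held 93.34, 67.85 and 93.56 percent of Mcm5, and in library 2 Mcm5-205 held 22.72 percent, against 0 in the other libraries. By posterior mean estimates Mcm5-205 held 15.87, 33.74 and 14.46 percent, again highest in library 2 but not absent elsewhere. Gmnn-202 held 88.09, 83.71 and 63.15 percent of Gmnn, and Gmnn-203 held 0, 2.65 and 22.33 percent. Both alternatives are annotated as protein-coding, and protein-coding transcripts together had 28.14, 26.14 and 25.60 TPM for Mcm5 and 16.72, 16.87 and 17.96 TPM for Gmnn. Cdc6-202 held 64.7 ± 31.6 percent, Cdc6-203 18.4 ± 18.0 and Cdc6-204 16.8 ± 22.2, a division that rests on 22 counts. Posterior mean estimates turned this order, with 49.7 percent in Cdc6-204, 27.9 in Cdc6-202 and 13.4 in Cdc6-203.

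**Figure D3:**
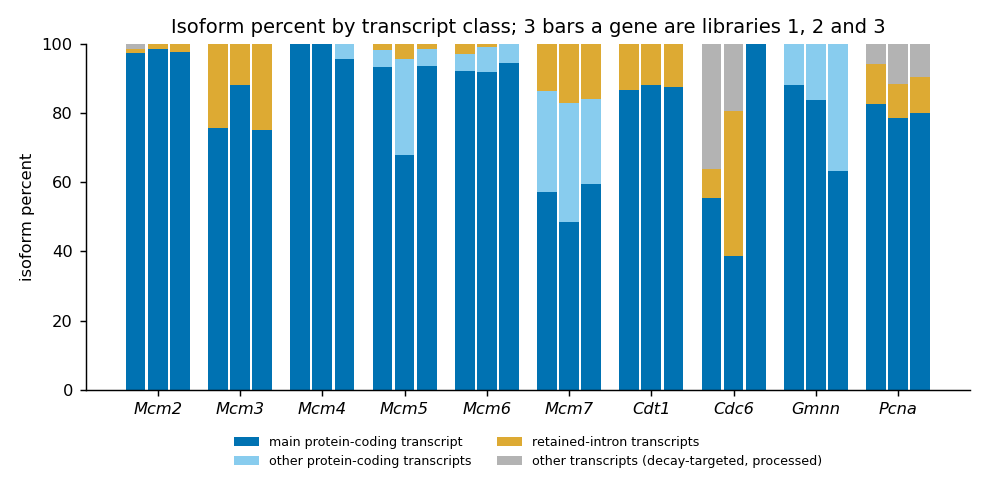
Isoform percent of each gene, stacked by transcript class, with 3 bars a gene for libraries 1, 2 and 3. Mcm2, Mcm4 and Mcm6 are nearly all in their main protein-coding transcript, Mcm7-201 holds 57.24, 48.56 and 59.46 percent of Mcm7, and Cdc6 differs most between libraries.

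Mcm7, with 10 annotated transcripts, had the lowest mean isoform percent in its top transcript. By posterior means Cdc6 was lower, as given above. Mcm7-201 held 55.1 ± 5.76 percent of its TPM but 80.0% of its counts, and Mcm7-208 held 7.89, 17.69 and 6.17 percent. The gene carries the hairpins of Mir25, Mir93 and Mir106b on its own strand, a cluster known to restrain cell cycle inhibitors. Their main mature forms, from RefSeq, are shown with the seed (bases 2 to 8) in capitals, since the first pair share the seed AAAGUGC.
mmu-miR-93-5p: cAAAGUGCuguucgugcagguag
mmu-miR-106b-5p: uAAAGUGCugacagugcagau
mmu-miR-25-3p: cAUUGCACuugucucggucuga
None of them lies in an exon of Mcm7-201, but miR-25 and miR-93 lie within an exon of the retained-intron model Mcm7-202, which held 11.36, 9.82 and 6.98 percent. PolyA libraries do not measure mature miRNAs, and Mir25 and Mir93 were listed at 0, while Mir106b had 0, 1 and 1 counts. Mcm7 also overlaps Cops6, a signalosome subunit gene at 128 TPM, and Ap4m1, an adaptor protein gene at 7.69 TPM, both on the opposite strand, and whether counting used strand is not given in the sources used here. Cdt1 lies within Gm20388, a long model on the same strand that had 26.52, 7.24 and 9.62 TPM. Expected counts of Cdt1 were whole numbers, 1332, 1595 and 1551, with a posterior standard deviation of 0 in each library. These counts thus show no Cdt1 reads divided with Gm20388, and how reads in the overlap were assigned was not tested.

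Pcna and Mcm7 had the most sequence in common with other genes. Of 50-base windows in Pcna-201, 31.8% occur also in the processed pseudogene Pcna-ps2, which was listed at 1.47 ± 0.521 TPM. Of those in Mcm7-201, 34.2% occur in other genes, 26.0% in the pseudogene Gm5487 at 0.400 TPM and 7.66% in Ap4m1. The share was 8.25% for Cdc6, under 2% for Mcm4, Mcm6 and Gmnn and 0 for Mcm2, Mcm3, Mcm5 and Cdt1. A second deposited table, of whole-number counts on an older annotation, held fewer reads for Pcna, 16.1% of its expected counts, where 919 genes of similar counts had a median of 48.8% and a 10th percentile of 18.2%. Mcm7 kept 46.5%, near the median of 50.4% of 1027 genes of similar counts and far above their 10th percentile of 19.6%. The other 8 genes kept between 59.1% and 77.3%. Per effective length the older counts put Pcna 7th of the 10 genes, not first, below Cdt1 in place 3. The place of Pcna above every helicase subunit thus held in TPM and not in the older counts, and with expected counts not corrected for length Pcna was below Mcm4 and Mcm6. The part of the shared sequence in this difference was not tested.

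**Figure D4:**
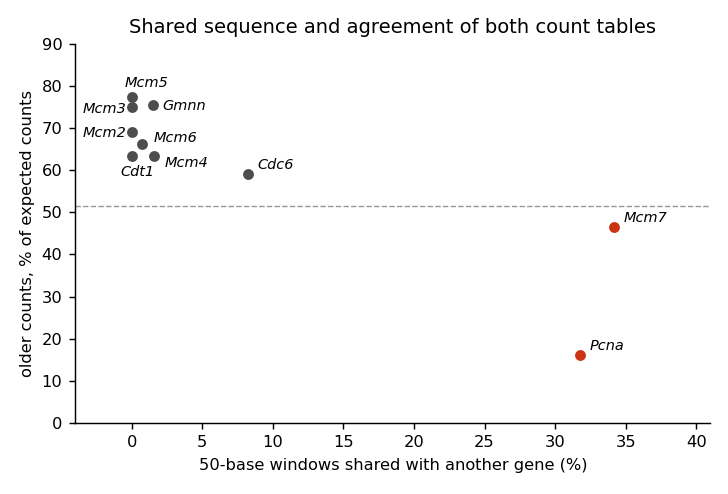
Older whole-number counts as a percent of expected counts (vertical axis) against the percent of 50-base windows that a gene's main transcript shares with another gene (horizontal axis), 1 point per gene. The dashed line is the median of 10709 genes, 51.5%, and Pcna and Mcm7, in red, lie below it.

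Messages of genes that act before and after helicase loading were mostly detected, with low levels in some members of most lists. Of the 106 other listed genes of replication and the cell cycle, 80 were detected, 75.5% beside 44.6% of protein-coding genes, with a median of 12.5 TPM. All 6 origin recognition genes were detected, with Orc4 at 118 ± 16.4 TPM and Orc3 at 83.1 ± 2.23 TPM the highest and Orc2 at 23.5 ± 0.853 TPM next to last. Orc1, a subunit that contacts Cdc6, was the lowest at 2.70, 2.23 and 4.28 TPM. With Orc1 to Orc6 counted among the loading factors, the helicase subunits were higher by 1.63 on the log2 scale.

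Of 14 origin firing genes 10 were detected. Donson, a factor that helps assemble the active helicase, had 129 ± 2.21 TPM, and Dbf4, the activator of the kinase that phosphorylates the helicase, had 80.8 ± 3.65 TPM. Ticrr, which recruits Cdc45, had 0.690 ± 0.115 TPM, and Mcm10, which acts when the helicase starts, had 0.02, 0.26 and 0.08 TPM from 8 counts. Donson overlaps Son, at 126 TPM on the opposite strand. Orc4, Orc2, Mcmdc2, Cdc20, Skp1, Tk1, Lig1 and Mcmbp also overlap genes that averaged over 1 TPM on the opposite strand. All these values share the limit on strand given for Mcm7. On the same strand, where strand cannot separate reads, Donson overlaps Atp5o at 31.4 TPM. Rrm2b, named below, overlaps the processed pseudogene Gm3362 at 15.4 TPM in that way. Skp1, Rpa1 and Mcmbp overlap same-strand genes at 7.91, 3.16 and 1.20 TPM.

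Genes that control the loading factors were mostly detected, at very unequal levels. Of 13 genes of Cdt1 and Cdc6 turnover and geminin partners 11 were detected, led by the ubiquitin ligase subunits Skp1, at 270 ± 28.5 TPM, and Rbx1, at 229.5 ± 6.54 TPM. Dtl, Skp2 and Ccnf, named here after their values were seen, were detected at only 2.65, 2.05 and 1.61 TPM on average. Mcidas, a geminin relative, had 0.0400 TPM from 3 counts, and Gmnc, another, was listed at 0 in every library. Of 6 relatives and partners of the helicase 5 were detected. Mcmbp, which binds free subunits, had 170 ± 14.9 TPM, and Kat7, an acetyltransferase that acts at origins, had 101 ± 7.92 TPM. Mcm8, a subunit of a separate helicase in recombination, had 1.27 ± 0.187 TPM, and Mcmdc2 had 0.213 ± 0.0702 TPM.

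Messages of most genes for the machinery that Pcna serves were detected. Of 12 polymerase and primase genes 11 were detected, with the accessory subunits Pole4 at 235 ± 29.6 TPM and Pold4 at 70.6 ± 5.36 TPM, and the catalytic subunits Pola1 at 5.80 ± 0.609 TPM and Pole at 1.76, 2.88 and 0.97 TPM. All 9 clamp loader genes were detected, with Rfc2 at 101 ± 8.58 TPM and Chtf8, the sum of 2 entries, at 41.8 ± 18.5 TPM, and with Dscc1 at 2.85 ± 0.431 TPM and the unloader Atad5 at 2.55 ± 0.241 TPM. Of 8 fork genes 7 were detected. The single-strand binding genes Rpa1 and Rpa2 had 162 ± 40.0 and 57.1 ± 3.95 TPM, the ligase Lig1 10.4 ± 1.03 TPM, and Clspn, which signals stalled forks, 1.15 ± 0.197 TPM.

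Genes of nucleotide supply stood on both sides of the detection limit, with 6 of 8 detected. Samhd1, which degrades deoxynucleotides, had 343 ± 17.7 TPM, and Rrm2b, the reductase subunit used outside S phase, had 31.5 ± 2.50 TPM. Tk1, the thymidine kinase of cycling cells, had 0.923 ± 0.227 TPM. Among the proliferation genes Cenpa, a centromeric histone, had 256 ± 18.0 TPM and Cdc20 8.45 ± 0.618 TPM, while Aurkb and Mki67 had 0.163 ± 0.148 and 0.137 ± 0.0666 TPM. Cdc6, at 0.290 TPM, was below the median of this list. Mcm5, the lowest helicase subunit, was 96.7 times higher than Cdc6 from pooled counts (exact 95% interval 63.7 to 155), and 51.7 times higher with posterior mean TPM.

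**Figure D5:**
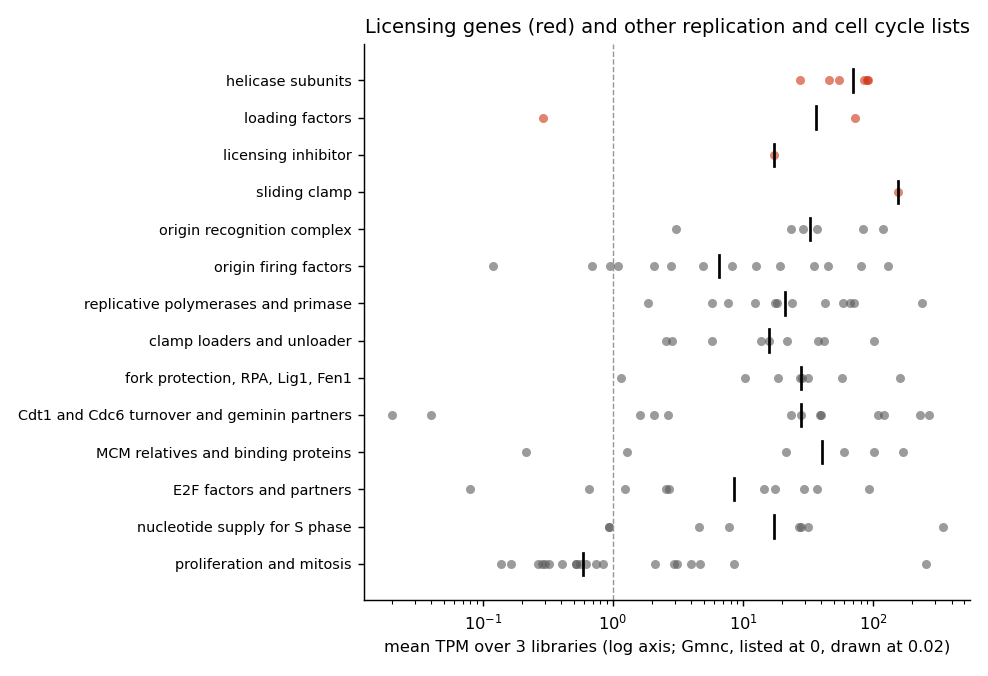
Mean TPM over the 3 libraries (log axis) of each gene in the 14 lists, with 1 point per gene, a bar at the list median and a dashed line at 1 TPM. The helicase subunits, in red at the top, lie between 27.3 and 91.0 TPM, whereas proliferation and mitosis genes have a median of 0.590 TPM, with 7 of 20 detected and Cenpa highest at 256 TPM.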

How the data were processed

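Per the labels, RNA of 1 animal was sheared by sonication (Covaris), with a size range of 100 to 300, and sequenced in 3 technical libraries. The assembly was mm10, annotated with GENCODE M21 (gene and transcript tables) or M4 (older counts), per the text beside the deposited files; the sources used here name no aligner, quantifier or strand setting. Expected counts and TPM were deposited per gene and transcript, and TPM were used as deposited. Isoform percent was deposited per transcript. The bounds on TPM, a quantity treated as a non-negative signal, were deposited beside posterior mean values. Whole-number counts on M4 were deposited for 22457 genes. Entries that name no gene held 0.247%, 0.200% and 0.325% of expected counts and were left out.

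The members and gene lists were chosen with earlier results of these data known, and the lists are described by counts and medians with no test. Named were all 10 members, of each other list the 2 highest and 2 lowest genes by mean TPM, and member transcripts with at least 10 percent of their gene. Some listed genes are not reported here by name but remain in the counts. Skp1 was found under the M21 symbol Skp1a through RefSeq synonyms. Log2 differences used TPM + 0.1. Expected counts were rounded, scaled by TMM (edgeR 4.0.16, R 4.3.3) and tested by chi-square (scipy 1.17.1), which was tested on simulated data. Replicates are technical, so p-values ask only whether technical libraries differ beyond counting noise, and the exact intervals cover counting error only. The alternatives used other pseudocounts, minimums and units, DESeq2 1.42.0 size factors, and each library left out.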

Additional observations from a re-analysis of the deposited data

How the results depend on the processing

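The helicase subunits exceeded the 2 loading factors together by 3.52 on the log2 scale, and by 2.66 with a pseudocount of 1, 3.15 with posterior mean TPM, 3.84 without length correction and 1.63 with Orc1 to Orc6 among the loading factors. Leaving out each library gave 3.40 to 3.70. With a single loading factor, both chosen after seeing the data, the difference was -0.26 for Cdt1 and 7.31 for Cdc6. The log2 range within the helicase was 1.74, and 2.18 without length correction, 1.43 with older counts and 1.68 to 1.79 with a library left out. The number of genes that differed between libraries was 4 of 9 (40.0% of all genes), and 2 of 9 with older counts (18.9% of all genes). It was between 1 and 5 with a library left out (14.7% to 36.8% of all genes). It was 5 with library totals (42.3%), 4 with DESeq2 size factors (40.0%) and 4 at a minimum of 30 counts (44.8%). With no count filter it was 4 of 10, beside 15.5% of all genes. Listed genes detected, members included, numbered 89, and 69 to 100 under the other settings. Non-overlapping neighbours in the order of levels numbered 5, and 6 to 7 with a library left out, where fewer libraries make overlap rarer. Of 90 other values for single genes and transcripts 22 moved beyond 1 SD, all of them with posterior mean or rescaled values. Leaving out 1 of 3 libraries cannot shift a mean by 1 SD, so those values could not move. The share that moved is thus no measure of stability, and the cause was not tested. With posterior mean TPM the ratio of Cdt1 to Cdc6 was 136 and that of Mcm5 to Cdc6 51.7, an alternative chosen after seeing the data. The depth limits Cdc6 and its transcripts most, which rest on 22 counts. No paired analysis was possible because there is 1 group.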

Other observations

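Subunits of some other replication complexes were also unequal, named here after their values were seen. Of the 4 GINS genes, whose products join the helicase at firing in equal number, Gins4 had 35.03, 33.26 and 36.63 TPM and Gins3 4.24, 4.25 and 6.13 TPM. Gins2 had 1.81, 2.63 and 1.72 TPM and Gins1 0.70, 1.07 and 1.05 TPM, from 22 counts in all, so the 4 genes did not overlap in any pair. Cdc45, the other helicase partner, had 2.84, 2.72 and 2.86 TPM. In DNA polymerase delta, the catalytic subunit Pold1 had 58.1 ± 8.89 TPM, near Pold2 at 66.4 ± 10.3 TPM and Pold4 at 70.6 ± 5.36 TPM. Pold3 of that polymerase was lower, at 23.8 ± 1.38 TPM. In polymerase epsilon, Pole had 1.87 ± 0.960 TPM beside Pole2 at 17.7 ± 1.09 TPM and Pole3 at 18.3 ± 1.27 TPM. Pole4 had 235 ± 29.6 TPM.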
